A study of Mus musculus with 4 samples.

Results

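Imprinted genes are, outside the germ line, transcribed mainly from 1 of the 2 parental copies. Here 39 of them were followed in spermatocytes at the leptotene and zygotene stages (L/Z), the first steps of meiosis. They were taken by gene symbol from a fixed list of well-known imprinted genes, and all 39 were found among the 23980 genes of the table. By the germ line in which the controlling region of their cluster is methylated, 8 genes belonged to paternally methylated regions (H19, Igf2, Dlk1, Meg3, Rian, Mirg, Dio3 and Rasgrf1) and the other 31 to maternally methylated regions. The RNA came from 4 libraries of F1 hybrid mice between C57BL/6J and MSM/Ms, aged 3 to 4 weeks, in which polyA(+) RNA of sorted cells was sequenced. The first library came from a Dnmt3L heterozygote, which carries the mutant allele on 1 chromosome, and the second from a Pld6 wild type (WT). Both served as controls, and they differ in line and in genotype. The third and the fourth came from a Pld6 knockout (KO) and a Dnmt3L KO. Each mutant had 1 library, so no mutant value has a replicate check, and how many animals gave a library is not given in the sources used here.

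Genomic imprints are marks of DNA methylation that are erased in primordial germ cells and set anew in each germ line. In the male germ line they are placed before birth, in prospermatogonia, at the H19/Igf2, Dlk1-Dio3 and Rasgrf1 regions, while the regions that carry maternal methylation stay free of it until the egg. Dnmt3l encodes a cofactor of the de novo methyltransferases that set these marks, and Pld6 encodes a nuclease needed to make piRNAs, on which methylation of the Rasgrf1 region is known to depend. The values used here give neither methylation nor allele of origin, so the comparison answers only whether the level of these transcripts differed in the mutants. The study did read alleles in F1 hybrid L/Z spermatocytes, for genes with a nearby retrotransposon that MSM/Ms lacks. That reading was not repeated here.

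DNA methylation falls on CpG dinucleotides, and the start sites of 4 genes are shown, 1 for a gene of each kind of region and 2 for genes that were low in a mutant. Each is a window of 250 bases before to 50 bases after a RefSeq start (GRCm38.p6, which has the coordinates of mm10), written 5′ to 3′ on the gene's strand, with every CG in capitals. Meg3 (chr12:109540746-109541045, plus strand) is a gene of a paternally methylated region, and its window was placed at the gene start, not at the controlling region. Peg3 (chr7:6730370-6730669, minus strand) is a gene whose promoter lies in a maternally methylated region. Phlda2 (chr7:143502475-143502774, minus strand) and Slc22a18 (chr7:143473539-143473838, plus strand) are neighbours in the Kcnq1ot1 region that were low in a mutant.
Meg3: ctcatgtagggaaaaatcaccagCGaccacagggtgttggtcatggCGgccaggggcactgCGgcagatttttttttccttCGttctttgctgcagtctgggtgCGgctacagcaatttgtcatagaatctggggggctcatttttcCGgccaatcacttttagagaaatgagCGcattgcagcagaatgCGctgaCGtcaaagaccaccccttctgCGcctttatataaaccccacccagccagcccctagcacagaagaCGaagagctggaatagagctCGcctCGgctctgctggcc
Peg3: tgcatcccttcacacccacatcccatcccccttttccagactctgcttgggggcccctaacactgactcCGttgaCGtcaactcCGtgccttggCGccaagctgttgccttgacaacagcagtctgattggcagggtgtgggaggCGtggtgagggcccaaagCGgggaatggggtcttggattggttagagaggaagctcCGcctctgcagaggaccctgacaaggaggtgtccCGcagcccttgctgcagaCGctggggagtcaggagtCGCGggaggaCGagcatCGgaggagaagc
Phlda2: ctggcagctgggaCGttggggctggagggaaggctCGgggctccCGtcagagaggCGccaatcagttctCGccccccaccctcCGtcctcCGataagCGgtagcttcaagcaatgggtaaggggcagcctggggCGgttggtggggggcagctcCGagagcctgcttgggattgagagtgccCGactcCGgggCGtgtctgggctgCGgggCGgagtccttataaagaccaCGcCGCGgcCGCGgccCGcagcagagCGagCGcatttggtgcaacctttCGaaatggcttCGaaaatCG
Slc22a18: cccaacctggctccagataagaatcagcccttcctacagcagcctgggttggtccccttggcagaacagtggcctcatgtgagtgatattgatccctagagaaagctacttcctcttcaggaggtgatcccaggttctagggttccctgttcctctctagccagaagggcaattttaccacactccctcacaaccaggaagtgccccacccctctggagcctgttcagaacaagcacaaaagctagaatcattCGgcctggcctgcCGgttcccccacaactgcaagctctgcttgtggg
The Meg3 window held 13 CG dinucleotides, as did the Peg3 window, and 37.9% of all 32851 promoter windows held as many or more. The Phlda2 window held 26 (16.9% of all windows held as many or more) and the Slc22a18 window 2 (85.9%). H19, Peg10, Sgce, Nespas, Kcnq1, Cdkn1c and Impact had no window. Across the 32 members with one the median was 15 (range 0 to 45), with the most upstream window taken for each gene. It was 10 over 7 genes of paternally methylated regions and 16 over 25 genes of maternally methylated regions. Over all windows, which can include several per gene, the median was 7. The choice of window matters, since for Igf2 the most upstream one held 2 and the richest 24. These are counts of letters at gene starts in the reference sequence, on which CG reads the same on both strands. They were not taken at the controlling regions as such, and they say nothing of methylation in these cells.

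The targeted genes were low in the libraries labelled as their knockouts. Pld6 was at 17.2 FPKM, fragments scaled to transcript length and library depth, in the Dnmt3L heterozygote, 19.5 in the Pld6 WT, 0.334 in the Pld6 KO and 8.55 in the Dnmt3L KO library. Dnmt3l was at 1.27, 0.980, 0.432 and 0 FPKM in the same order, and its last value stands on 0 fragments, which allows up to 3. Fragments in genes totalled 30439943 to 63875934 per library. These totals are above the reads per L/Z library that the study's methods state, which may describe other libraries, so a fragment here may not stand for 1 independent read. The sorted fractions were unlike in their somatic and spermatid RNA. The median of 15 Sertoli cell markers was 55.8 FPKM (heterozygote) and 73.6 FPKM (KO) in the Dnmt3L line, but 4.63 FPKM (WT) and 9.17 FPKM (KO) in the Pld6 line. Their summed level was 4129 and 5757 FPKM in the Dnmt3L line against 181 and 433 FPKM in the Pld6 line, and none of the 15 was at 0 in any library. In the order Dnmt3L heterozygote, Pld6 WT, Pld6 KO and Dnmt3L KO, medians were 38.4, 1.94, 7.90 and 34.6 FPKM for 7 Leydig markers, 13.2, 3.06, 11.8 and 5.78 FPKM for 9 peritubular and vascular markers, and 10.5, 2.04, 5.88 and 17.8 FPKM for 7 macrophage markers. Markers of L/Z spermatocytes (12 genes) were present in every library, with medians of 38.8 to 122 FPKM. In the Dnmt3L line the L/Z medians (48.7 FPKM in the heterozygote and 38.8 FPKM in the KO) were below the Sertoli medians. Those of 11 spermatogonial markers ranged from 27.9 to 59.3 FPKM. The medians of 10 pachytene markers were 57.9 and 41.5 FPKM in the controls and 2.05 and 1.72 FPKM in the Pld6 KO and Dnmt3L KO libraries, and those of 12 spermatid markers were 35.9 and 14.2 against 0.788 and 0.590 FPKM. Summed over the spermatid markers, the Dnmt3L line had 7021 FPKM (heterozygote) and 29.5 FPKM (KO), and the Pld6 line 176 FPKM (WT) and 12.2 FPKM (KO), so the controls were far apart here too. In such bulk samples, fewer cells of a type and less RNA per cell cannot be told apart from these values alone. By cell sorting, the study found germ cells only up to the zygotene stage in testes of both mutants. It ascribes this to cell death late in that stage, without saying whether those mice were hybrids.

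**Figure D1:**
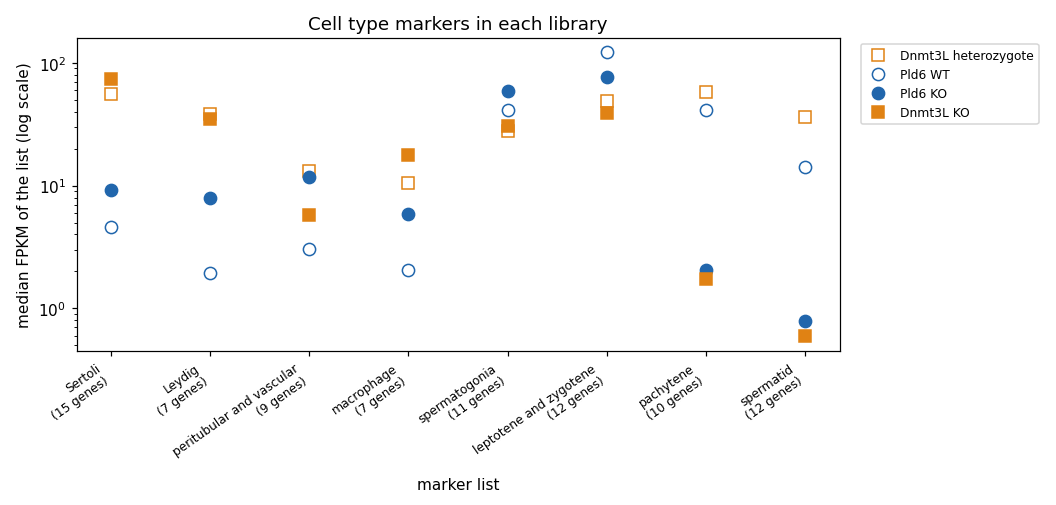
Median FPKM (log scale) of the markers of 8 cell types in each library, with squares for the Dnmt3L line, circles for the Pld6 line, open symbols for controls and filled symbols for mutants. The Sertoli medians of the Dnmt3L line (55.8 and 73.6 FPKM) lie above those of the Pld6 line (4.63 and 9.17 FPKM), while the pachytene and spermatid medians of both mutants lie below both controls.

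To ask which imprinted genes differed in a mutant, each was set against both controls, and a gene was counted where FPKM + 1 in the mutant was over 2 times, or under 0.5 times, the value in each. A gene under 1 FPKM in either control cannot be counted as lower by this rule. In the Pld6 KO library 0 of the 39 genes were higher and 0 lower by this rule, while 1.04% of all 23980 genes were higher and 5.41% lower. For the Dnmt3L KO library 1 gene was higher, Peg10 (2.14% of all genes), and 1 was lower, Phlda2 (5.78% of all genes). The counts among the members were thus close to or below what the shares of all genes give. Since many genes of the table are hardly transcribed, the same shares were taken over the 14416 genes with a mean of at least 1 FPKM. They came to 1.51% (higher) and 8.57% (lower) for the Pld6 KO, and to 3.29% and 9.16% for the Dnmt3L KO. Of the members 29 had that mean, and both genes counted were among them.

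The direction of the smaller differences was described without a size limit. The Pld6 KO level was above both controls for 18 of the 39 genes, below both for 6 and between them for 15, where 26.4% of all genes were above both and 27.5% below both. In the Dnmt3L KO library 15 genes were above both, 11 below both and 13 between the controls (29.1% and 28.6% of all genes). Genes at 0 in all libraries count as between. Of the 14416 genes with a mean of at least 1 FPKM, 4471 were above and 4666 below both controls in the Pld6 KO library. The Dnmt3L KO library had 5112 and 4908. Of the 29 members with that mean, 12 were above both in each mutant, and 5 (Pld6 KO) and 7 (Dnmt3L KO) were below both. Over the 8 genes of paternally methylated regions the median log2 change in FPKM + 1, against the mean of the controls, was 0.25 in the Pld6 KO and -0.13 in the Dnmt3L KO library. It was 0.23 and 0.06 over the 31 genes of maternally methylated regions, and 0 over all genes in both mutants. Over all genes with a mean of at least 1 FPKM it was -0.053 and -0.015. The paternal medians depended on the control, with a range from -0.19 against the Pld6 WT to 0.66 against the Dnmt3L heterozygote for the Pld6 KO, and from -0.22 to 0.20 for the Dnmt3L KO library.

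**Figure D2:**
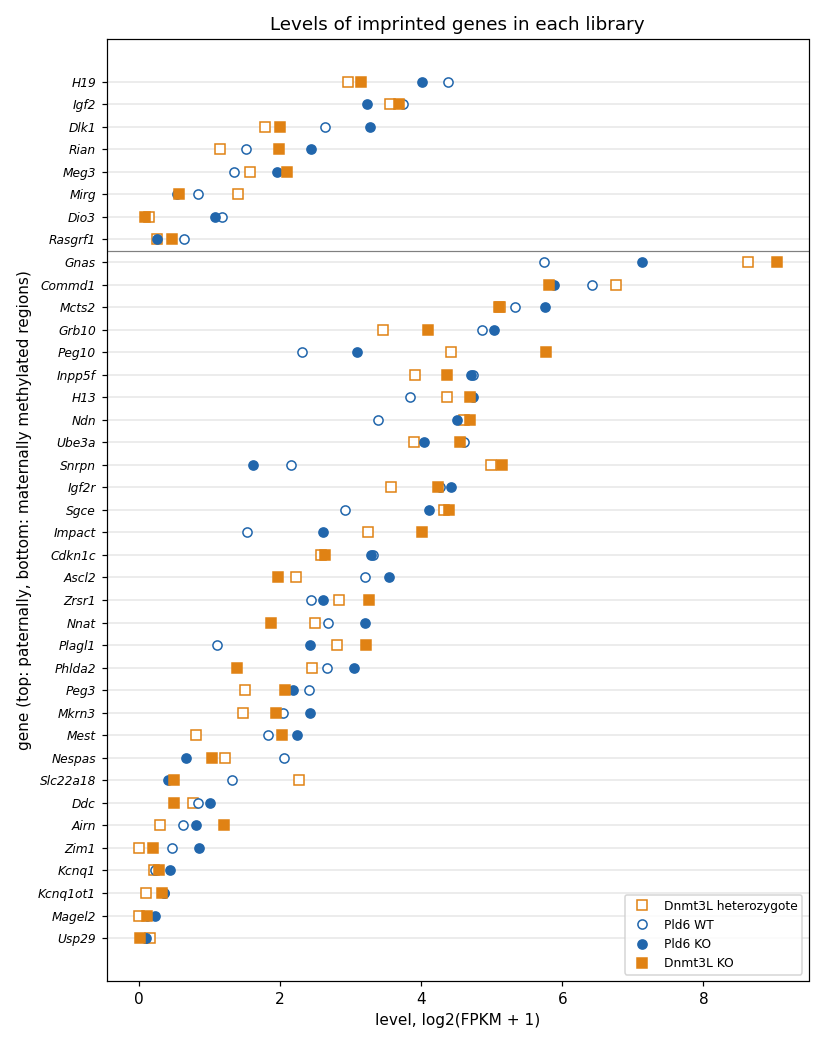
Level of each of the 39 genes as log2(FPKM + 1) in the 4 libraries, with the 8 genes of paternally methylated regions above the line, each block sorted by mean level, and symbols as in the plot of cell type markers. Gnas is at the top of the maternal block, and for Gnas, Peg10, Snrpn, Impact, Plagl1, Sgce and Ndn both libraries of the Dnmt3L line lie to the right of both libraries of the Pld6 line.

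Of the paternally methylated regions, none held a gene counted in either mutant. Mirg, Dio3 and Rasgrf1 were under 1 FPKM in a control and so could not be counted as lower. At the H19/Igf2 region outside the germ line, a methylated paternal copy lets the growth factor gene Igf2 be transcribed, and the unmethylated maternal copy gives the long noncoding RNA H19. H19 was at 6.81 FPKM in the Dnmt3L heterozygote, 19.8 in the Pld6 WT, 15.2 in the Pld6 KO and 7.87 in the Dnmt3L KO library (900 to 1948 fragments). Each mutant thus lay between the controls and nearer to the control of its own line. Igf2 was at 10.8, 12.4, 8.41 and 11.9 FPKM in the same order, and the Pld6 KO level was the lowest of these. The ratio of H19 to Igf2 in FPKM was 0.632 and 0.662 in the heterozygote and KO of the Dnmt3L line, and 1.60 and 1.81 in the WT and KO of the Pld6 line. It separated the lines and not the mutants from their controls.

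Outside the germ line, the protein-coding genes of the Dlk1-Dio3 region are transcribed mainly from 1 parental copy and its noncoding RNA genes from the other. Dlk1, which encodes a Notch-like membrane protein, was at 2.45 FPKM in the Dnmt3L heterozygote, 5.22 in the Pld6 WT, 8.66 in the Pld6 KO and 3.02 in the Dnmt3L KO library. The Pld6 KO level was above both controls, by 1.49 and 0.63 on the log2(FPKM + 1) scale. Dio3, the deiodinase that inactivates thyroid hormone, was at 0.111, 1.27, 1.12 and 0.0633 FPKM, on 12, 86, 59 and 5 fragments. Its low level was thus shared by both libraries of the Dnmt3L line.

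The noncoding RNAs of that region did not all stand on the same side of the controls. Meg3 was at 1.99 FPKM in the Dnmt3L heterozygote, 1.54 in the Pld6 WT, 2.90 in the Pld6 KO and 3.28 in the Dnmt3L KO library. Rian, which hosts small nucleolar RNAs, was at 1.22, 1.87, 4.43 and 2.96 FPKM. Both genes were higher in each mutant than in each control, and Rian in the Pld6 KO library was the paternal-region gene with the largest change (1.09 on the log2 scale). It missed the 2-fold limit against the Pld6 WT (0.92), but was counted with a pseudocount of 0.1 FPKM. Mirg, a host of microRNAs, was at 1.66 and 0.783 FPKM in the controls and 0.460 and 0.481 FPKM in the Pld6 KO and Dnmt3L KO libraries, on 16 to 118 fragments. So the last gene of this row of noncoding RNAs was on the other side of both controls from Meg3 and Rian. The ratio of Mirg to Meg3 was 0.832 and 0.507 in the controls against 0.158 and 0.147 in the Pld6 KO and Dnmt3L KO libraries. Pachytene and spermatid markers were also low in the mutants, with 8 of 10 pachytene markers more than 2-fold below both controls in each. Their part in the Mirg level was not tested. Between the start of Meg3 and the end of Mirg the table lists 55 microRNA genes, all with 0 fragments in the 4 libraries of polyA(+) RNA.

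Rasgrf1, a guanine nucleotide exchange factor of Ras, was at a low level in all libraries. In the order Dnmt3L heterozygote, Pld6 WT, Pld6 KO and Dnmt3L KO it was at 0.195, 0.567, 0.196 and 0.388 FPKM, on 51, 93, 25 and 74 fragments. Neither mutant lay beyond both controls. Against the WT of its own line the Pld6 KO level was lower by a ratio of 0.345, and the controls differed from each other by a ratio of 0.344. The Dnmt3L KO level was 1.99 times that of the heterozygote, a difference within the distance between the controls.

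**Figure D3:**
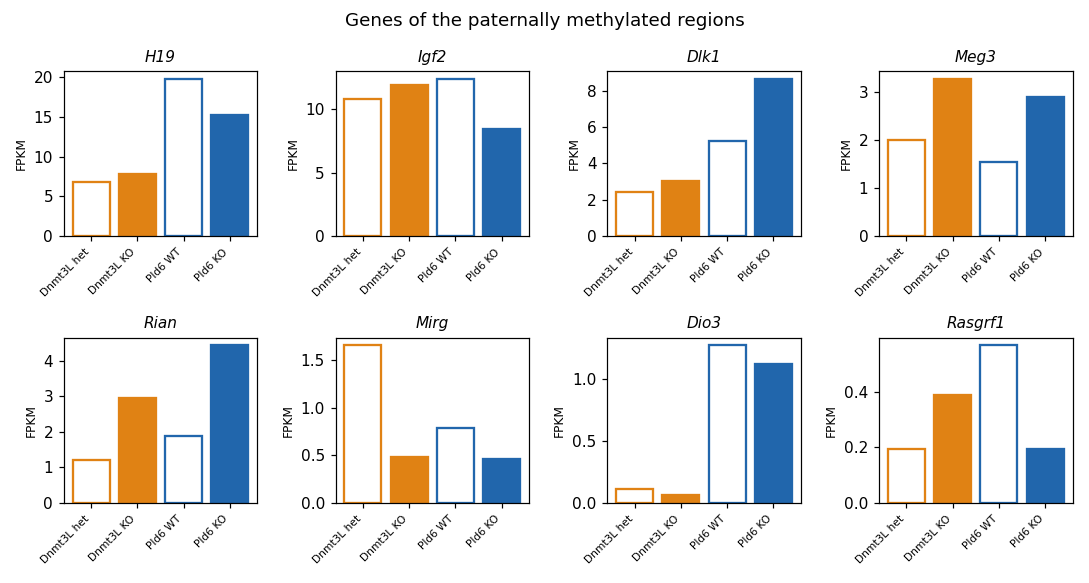
FPKM (linear axes that start at 0 and differ between panels) of the 8 genes of paternally methylated regions in each library, with open bars for the controls and filled bars for the mutants, 1 library per bar and no error bar. H19 and Dio3 are low in both libraries of the Dnmt3L line, Meg3 and Rian are higher in each mutant than in each control, and Mirg is lower in each mutant than in each control.

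Among the maternally methylated regions, the genes around the Peg10 promoter gave the only count on the high side in the Dnmt3L KO library. Peg10 (chromosome 6, 4747306 to 4760517) was derived from an LTR retrotransposon and is paternally expressed in the embryo and placenta. It was at 20.5 FPKM in the Dnmt3L heterozygote, 3.95 in the Pld6 WT, 7.53 in the Pld6 KO and 53.5 in the Dnmt3L KO library (8614, 1040, 1544 and 16404 fragments). The Dnmt3L KO level was 2.61 times that of the higher control, and the controls themselves differed 5.20-fold. The divergent neighbour Sgce, a gene for a sarcoglycan, was at 19.04, 6.61, 16.2 and 20.1 FPKM in the same order. Sgce in the Dnmt3L KO library was thus level with the heterozygote (ratio 1.05), and the ratio of Peg10 to Sgce was 2.67 there against 1.08, 0.598 and 0.464 in the Dnmt3L heterozygote, the Pld6 WT and the Pld6 KO library. All 15 Sertoli markers and all 7 macrophage markers were also above both controls in the Dnmt3L KO library, with 1 and 2 of them by more than 2-fold. Of 7 Leydig markers 3 were above both, 2 of them by more than 2-fold. Of 9 peritubular and vascular markers only 1 was above both, and their median (5.78 FPKM) was below that of the heterozygote (13.2 FPKM). Their part in the Peg10 level was not tested.

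The Kcnq1ot1 region held the only count on the low side. Phlda2 (chromosome 7, 143501545 to 143503145), a regulator of placental growth, was at 4.49 FPKM in the Dnmt3L heterozygote, 5.37 in the Pld6 WT, 7.31 in the Pld6 KO and 1.62 in the Dnmt3L KO library. These values stand on 156, 117, 124 and 41 fragments. The Dnmt3L KO level was 2.78-fold below the lower control, and the Pld6 KO level was above both controls. On fragments scaled to library size in place of FPKM, the gene was no longer beyond 2-fold of both. Slc22a18, a transporter gene that ends just before Phlda2, was at 3.81 and 1.51 FPKM in the controls and 0.339 and 0.421 FPKM in the Pld6 KO and Dnmt3L KO libraries. It was below both controls in each mutant, on 14 and 26 fragments against 322 and 80, which is 4.45-fold and 3.58-fold below the lower control in FPKM. On the log2(FPKM + 1) scale it missed the limit against the Pld6 WT (-0.91 and -0.82), and with a pseudocount of 0.1 FPKM it was counted as lower in both mutants. Of the pachytene markers, 8 of 10 were also more than 2-fold below both controls in each mutant, as were 11 of 12 spermatid markers in the Pld6 KO and 10 of 12 in the Dnmt3L KO library. Their part in this difference was not tested.

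Other genes of that region were nearer to the controls. Kcnq1ot1, the long noncoding RNA whose promoter is the imprinting control region, was at 0.0747 FPKM in the Dnmt3L heterozygote and at 0.256 to 0.286 FPKM in the other 3 libraries. Its values stand on 404 to 1010 fragments over a very long transcript. Kcnq1, a potassium channel gene that it overlaps on the opposite strand, was at 0.158 to 0.357 FPKM on 20 to 32 fragments. Cdkn1c, an inhibitor of the cell cycle, was at 4.99 and 5.23 FPKM in the heterozygote and KO of the Dnmt3L line, against 8.95 and 8.78 FPKM in the WT and KO of the Pld6 line. It thus followed the line and not the knockout. Ascl2, a transcription factor of the trophoblast, was at 3.69, 8.19, 10.6 and 2.95 FPKM in the Dnmt3L heterozygote, Pld6 WT, Pld6 KO and Dnmt3L KO libraries, with the Pld6 KO level the highest and the Dnmt3L KO level the lowest.

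**Figure D4:**
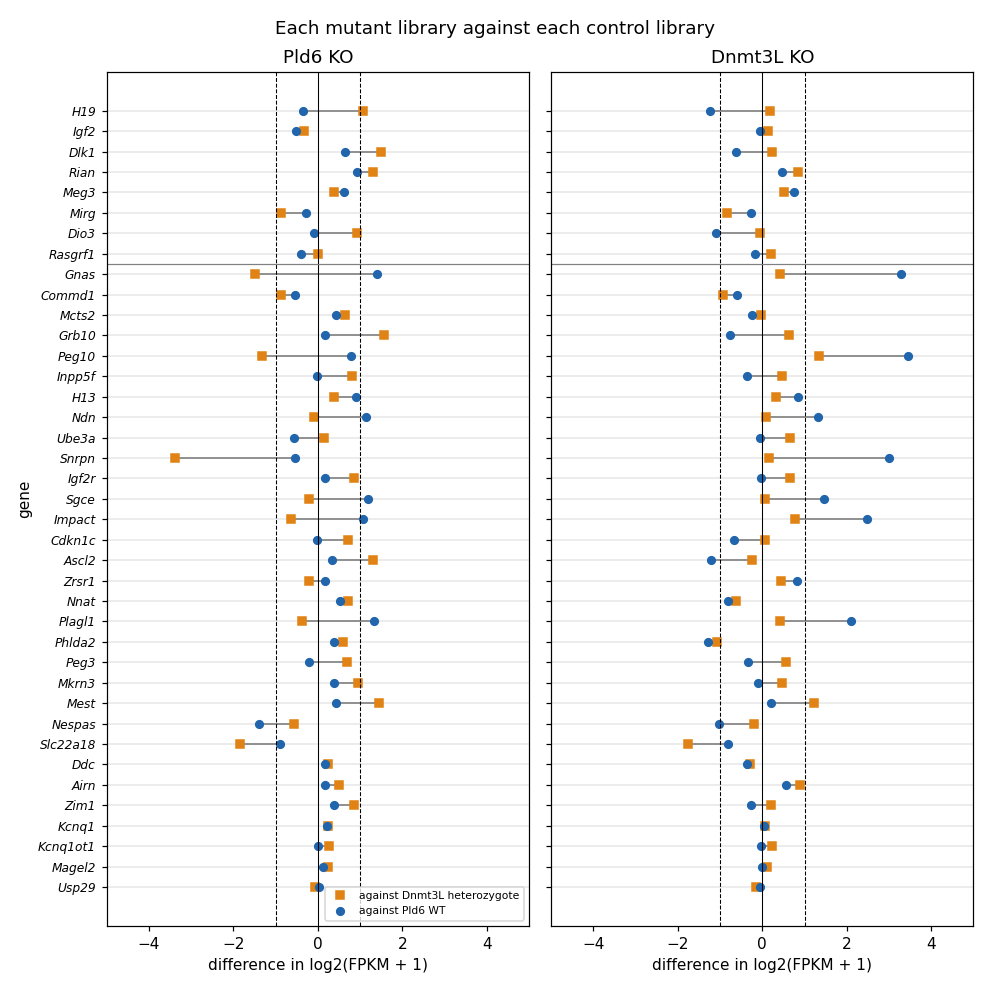
Difference in log2(FPKM + 1) of the Pld6 KO (left) and the Dnmt3L KO library (right) from each control library, with a grey line joining both values of a gene and dashed lines at 2-fold. Only Peg10 has both points above the upper dashed line and only Phlda2 has both below the lower one, each in the Dnmt3L KO panel.

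The Snrpn region, which in people is that of the Prader-Willi and Angelman syndromes, held genes of very unlike levels. Snrpn, a splicing factor gene, was at 30.9 and 34.5 FPKM in the heterozygote and KO of the Dnmt3L line, but at 3.47 and 2.07 FPKM in the WT and KO of the Pld6 line. Its log2 change of -2.57 in the Pld6 KO was the lowest of all members, yet against the WT of the same line the difference was -0.54. Ndn, which encodes necdin, was at 23.4, 9.46, 21.9 and 25.0 FPKM in the Dnmt3L heterozygote, Pld6 WT, Pld6 KO and Dnmt3L KO libraries. Here the Pld6 WT stood apart, and the other 3 were within 21.9 to 25.0 FPKM. Mkrn3, a makorin ring finger gene, was at 1.79 to 4.36 FPKM, and Magel2 at 0 to 0.177 FPKM on 0 to 25 fragments. Ube3a, the ubiquitin ligase of this region, was at 13.9 FPKM in the Dnmt3L heterozygote, 23.3 in the Pld6 WT, 15.4 in the Pld6 KO and 22.5 in the Dnmt3L KO library, so each mutant was near the control of the other line.

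At the Gnas region, the signalling gene Gnas and its antisense RNA Nespas went different ways. Gnas, the stimulatory G protein subunit, was the most abundant member except in the Pld6 WT library, where Commd1 was higher, at 394 FPKM in the Dnmt3L heterozygote, 52.5 in the Pld6 WT, 139 in the Pld6 KO and 524 in the Dnmt3L KO library. The Pld6 KO level was 2.65 times that of its WT, and the Dnmt3L KO level 1.33 times that of its heterozygote. Nespas was at 1.34, 3.18, 0.586 and 1.05 FPKM, below both controls in each mutant and 2.29-fold below the lower control in the Pld6 KO library. It was counted as lower in the Pld6 KO library only with a pseudocount of 0.1 FPKM or against the Pld6 WT alone. Medians of pachytene and spermatid markers were also below both controls in each mutant, and their part in the Nespas level was not tested. Overlapping pairs on opposite strands were Igf2r and Airn, Gnas and Nespas, Kcnq1ot1 and Kcnq1, and Zrsr1 and Commd1. The kit kept strand, but the strand setting of the counting is not given in the sources used here, so reads of such partners may have been mixed.

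Airn, the noncoding RNA that silences Igf2r in cis, rested on 5 to 13 fragments per library. It was at 0.230 and 0.552 FPKM in the controls, 0.748 in the Pld6 KO and 1.30 in the Dnmt3L KO library, and was counted as higher in the latter with a pseudocount of 0.1 FPKM. Igf2r, the receptor that clears insulin-like growth factor 2, was at 10.9 FPKM in the Dnmt3L heterozygote, 18.4 in the Pld6 WT, 20.6 in the Pld6 KO and 17.8 in the Dnmt3L KO library. The heterozygote stood below the other 3 libraries. In the Peg3 region, the zinc finger gene Peg3 was at 1.85, 4.30, 3.56 and 3.21 FPKM in that order, with both mutants between the controls. Its neighbour Zim1 had 0 fragments in the Dnmt3L heterozygote and 52, 85 and 23 in the Pld6 WT, Pld6 KO and Dnmt3L KO libraries, and Usp29 had 6 to 57 fragments.

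Several genes of single-gene regions were also above or below both controls by less than the limit. Mest, a hydrolase-like gene of the mesoderm, was at 0.748 FPKM in the Dnmt3L heterozygote and at 2.56, 3.75 and 3.10 FPKM in the Pld6 WT, Pld6 KO and Dnmt3L KO libraries. The heterozygote was again the lowest, and the Dnmt3L KO level was 4.14 times as high. Nnat, which encodes neuronatin, was at 4.63 and 5.40 FPKM in the controls, 8.20 in the Pld6 KO and 2.66 in the Dnmt3L KO library, on opposite sides of both. Plagl1, a zinc finger transcription factor, was at 6.03, 1.16, 4.40 and 8.35 FPKM, and Impact, a regulator of translation, at 8.47, 1.91, 5.13 and 15.2 FPKM. For both genes the Pld6 WT was lowest and the Dnmt3L KO highest. Grb10, an adaptor of insulin signalling, was at 10.02 and 16.2 FPKM in the Dnmt3L heterozygote and KO, and at 28.1 and 31.6 FPKM in the Pld6 WT and KO. Its neighbour Ddc, the aromatic amino acid decarboxylase, was at 0.409 to 1.01 FPKM.

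The remaining members are imprinted genes that lie within introns of other genes, and their hosts. Mcts2, a retrogene within H13, was at 33.8, 39.4, 52.9 and 33.2 FPKM, and H13, a signal peptide peptidase, at 19.7, 13.3, 25.8 and 24.8 FPKM in the Dnmt3L heterozygote, Pld6 WT, Pld6 KO and Dnmt3L KO libraries. Zrsr1, a retrogene within Commd1, was at 6.14, 4.44, 5.12 and 8.64 FPKM. Commd1, which acts in copper balance, was below both controls in each mutant, at 107 and 84.7 FPKM in the controls against 57.9 and 55.3 FPKM. So were the medians of pachytene and spermatid markers, and their part in the Commd1 level was not tested. Inpp5f, a phosphoinositide phosphatase gene, was at 14.1, 25.6, 25.2 and 19.7 FPKM, with both mutants between the controls. Retrogenes can share reads with the near-identical genes from which they came, so the values of Mcts2 and Zrsr1 are uncertain.

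How far the controls were apart was then measured for the same genes. They differed more than 2-fold in FPKM + 1 for 11 of the 39 genes (28.2%), against 14.8% of all genes and 23.7% of those with a mean of at least 1 FPKM. Of these, 7 were higher in the Dnmt3L heterozygote (11.1% of all genes), namely Peg10, Sgce, Snrpn, Ndn, Plagl1, Impact and Gnas, all of maternally methylated regions. All 7 were also higher in the Dnmt3L KO than in the Pld6 KO library. The other 4 (H19, Dio3, Mest and Grb10) were lower in the heterozygote (3.77% of all genes), and all were lower in the Dnmt3L KO than in the Pld6 KO library. Marker lists also differed between the controls, with 14 of 15 Sertoli, 7 of 7 Leydig, 7 of 7 macrophage, 6 of 9 peritubular and vascular, 8 of 10 pachytene and 11 of 12 spermatid markers higher in the heterozygote than in the Pld6 WT. Only 1 of 11 spermatogonial and 1 of 12 L/Z markers were higher in the heterozygote. Their part in these differences was not tested.

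Because of this, each mutant was also set against the control of its line, 1 library against 1, which shares no library between the comparisons. Above the Pld6 WT by more than 2-fold were 5 genes of the Pld6 KO library, namely Sgce (ratio of FPKM 2.46), Ndn (2.31), Plagl1 (3.78), Impact (2.69) and Gnas (2.65), against 4.69% of all genes. Nespas was lower (ratio 0.184), the 1 gene on that side (6.46% of all genes). For all 5 higher genes the Dnmt3L heterozygote exceeded the Pld6 KO library, so none was beyond both controls. Somatic marker medians were also higher in the Pld6 KO than in the Pld6 WT library, at 9.17 against 4.63 FPKM (Sertoli), 7.90 against 1.94 (Leydig), 11.8 against 3.06 (peritubular and vascular) and 5.88 against 2.04 (macrophage), and their part was not tested. Against the heterozygote, the Dnmt3L KO library had 2 higher genes, Peg10 (ratio 2.61) and Mest (4.14), and 2 lower ones, Phlda2 (0.360) and Slc22a18 (0.111). All genes gave 3% and 8.22% for that comparison. No gene of a paternally methylated region passed 2-fold in FPKM + 1 against the control of its line in either mutant. On that scale a gene under 1 FPKM in its control cannot pass as lower. That held for Rasgrf1 in both lines, for Mirg in the Pld6 line and for Dio3 in the Dnmt3L line. Nearest in the Pld6 line was Rian, at 2.37 times the Pld6 WT in FPKM (0.92 on the log2(FPKM + 1) scale). In the Dnmt3L line Mirg (-0.84, ratio of FPKM 0.290 on 25 fragments) and Rian (0.84, ratio 2.43) were nearest. Rasgrf1 in the Pld6 KO library was at 0.345 times the Pld6 WT in FPKM, also on 25 fragments.

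**Figure D5:**
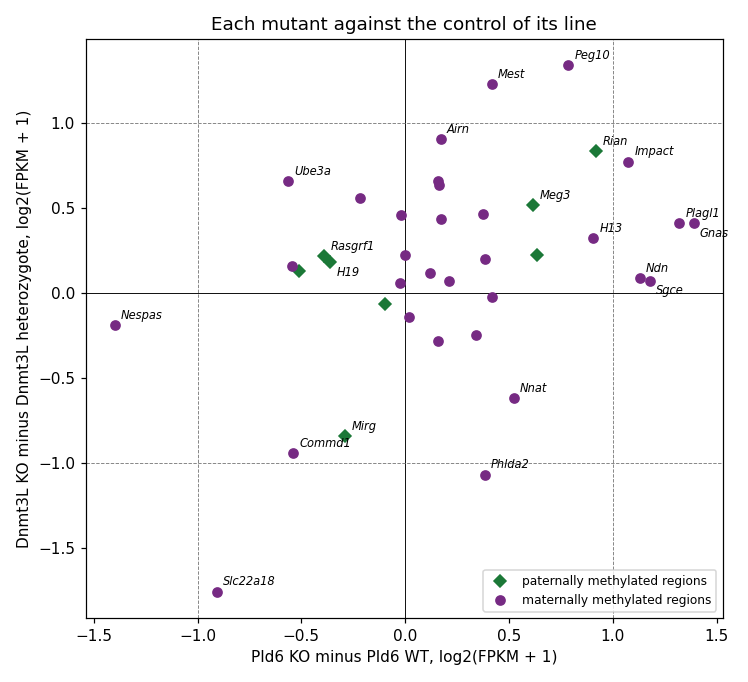
Difference of each mutant from the control of its own line in log2(FPKM + 1), Pld6 on the horizontal and Dnmt3L on the vertical axis, 1 point per gene, with diamonds for genes of paternally methylated regions and dashed lines at 2-fold. No diamond lies beyond a dashed line, and no gene is beyond the same dashed limit in both lines.

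A model of the fragment counts was fitted over all genes, with the spread taken from the 2 controls. In the quasi-likelihood test of edgeR, adjusted by Benjamini-Hochberg over 18657 genes, 0 of the 39 genes passed 0.05 in either mutant, as did 0% of all genes. At an unadjusted p under 0.05 there were also 0 members, against 7.96% of all genes for the Pld6 KO and 8.81% for the Dnmt3L KO. The lowest member in the Pld6 KO was Slc22a18, with a log2 fold change of -3.01 (edgeR adjusted p = 0.643). In the Dnmt3L KO it was Peg10, with a log2 fold change of 2.12 (edgeR adjusted p = 0.633), and Phlda2 had -1.62 (edgeR adjusted p = 0.806). DESeq2 tested 38 of the genes and called 0, where it called 5.46% and 5.26% of all genes in the Pld6 KO and Dnmt3L KO. It gave an unadjusted p under 0.05 to 2 members in the Pld6 KO (Snrpn and Slc22a18, both lower) and to 1 in the Dnmt3L KO (Peg10), where 8.76% and 9.08% of all genes had one. With line as a term and 1 effect shared by both mutants, a fit added after seeing the data, edgeR tested 38 of the genes (not Airn) and called 1, Peg10, with a log2 fold change of 1.13 (edgeR adjusted p = 0.0479), where it called 6.72% of all genes. At an unadjusted p under 0.05 that fit gave 5 higher genes (Peg10, Impact, Plagl1, Rian and Gnas) and 2 lower ones (Slc22a18 and Commd1), against 19.4% of all genes. Peg10 was higher than the control of its line in both mutants, and without the term for line 0 members were called. The model for single mutants has 1 residual degree of freedom, from libraries that differ in line and genotype, so a p that misses the threshold does not show that the levels were alike. The fit with line as a term also has 1, from how far the 2 mutants differed in their effects, so its call of Peg10 rests on little information.

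Further imprinted genes, 37 in number and not among the members, were counted by the same rule for comparison. In the Pld6 KO library 0 were higher and 1 was lower, against 1.04% and 5.41% of all genes. In the Dnmt3L KO library 2 were higher and 1 was lower, against 2.14% and 5.78% of all genes. The lower gene was Asb4 in both, at 2.28 and 1.58 FPKM in the controls, 0.184 FPKM (18 fragments) in the Pld6 KO and 0 FPKM (0 fragments) in the Dnmt3L KO library. The higher ones were Ppp1r9a, at 15.6, 2.47, 7.25 and 49.8 FPKM in the Dnmt3L heterozygote, Pld6 WT, Pld6 KO and Dnmt3L KO libraries, and Phactr2, at 8.50, 1.01, 2.28 and 20.2 FPKM. Ppp1r9a (chromosome 6, 4902872 to 5165661) and Asb4 (chromosome 6, 5383386 to 5433022) lie in the cluster of Peg10 and Sgce. Of the genes named from that cluster, Peg10 and Ppp1r9a were thus above both controls by more than 2-fold in the Dnmt3L KO library, Sgce was above both by less, and Asb4 was below both. Other listed genes of the cluster did not pass the limit in either mutant and are not named. The part of somatic, pachytene and spermatid markers in these levels was not tested. Of the 37 genes 11 (29.7%) had controls more than 2-fold apart, against 14.8% of all genes and 23.7% of those with a mean of at least 1 FPKM. Their median log2 change was 0.08 in the Pld6 KO and 0.07 in the Dnmt3L KO library.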

How the data were processed

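PolyA(+) RNA was sequenced from 4 libraries of L/Z spermatocytes with stranded kits and single-end reads of 50 bp. The authors aligned reads with TopHat (build mm10, per the submitters' processing notes) and quantified RefSeq genes with Cuffdiff, versions not given in the sources used here. The deposited table holds, per gene and library, an estimated count of fragments (97.3% to 97.4% whole numbers) and FPKM, scaled by the authors' tool to length and depth. No value of a member was marked as failed. Depths were 63875934 (Dnmt3L heterozygote, control replicate 1), 40541149 (Pld6 WT, control replicate 2), 30439943 (Pld6 KO) and 49932330 fragments (Dnmt3L KO). A count of 0 allows up to 3 fragments, for counting error only.

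Groups followed the labels. Changes were the log2 ratio of FPKM + 1 in the mutant to the control mean plus 1, a scale that understates changes of low genes, and a gene was counted when more than 2-fold beyond both controls. Fragments, rounded to whole numbers, were fitted with edgeR 4.0.16 (quasi-likelihood, TMM, filterByExpr, 3 groups, 1 residual degree of freedom) and DESeq2 1.42.0 in R 4.3.3. A fit of both mutants together, with line as a term, was added after seeing the data. P-values of the fits for single mutants measure change against the spread between the 2 controls, which differ in line and genotype and may also differ technically. In the fit with line as a term, the spread is instead how far the effects of the 2 mutants differed, on 1 residual degree of freedom. Every member found is named, with Pld6 and Dnmt3l as targets, and further imprinted genes only where they passed 2-fold of both controls. The members, the grouping and the lists, some written from general knowledge, were chosen with earlier results of these data known. Alternatives were a pseudocount of 0.1 FPKM, a mean FPKM of at least 0.5, TMM rescaling, a 3-fold limit, leaving out each control, other size factors, no count filter, DESeq2 and, added after seeing the data, scaled fragments. Positions and sequences came from RefSeq GRCm38.p6, with 38 of 39 members placed. Columns other than fragments and FPKM were not used here.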

Additional observations from a re-analysis of the deposited data

Results flagged for a closer look

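For 2 genes of maternally methylated regions, the mutant moved one way in the Pld6 line and the other way in the Dnmt3L line, each by at least 0.5 on the log2(FPKM + 1) scale against the control of its line. Ube3a was at -0.56 in the Pld6 KO against the Pld6 WT and at 0.66 in the Dnmt3L KO against the heterozygote. Nnat was at 0.52 and -0.62 in the same comparisons. With 1 library on each side, whether the lines differ was not tested.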

How the results depend on the processing

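No paired analysis was possible for single mutants because line and an effect for each mutant leave 0 residual degrees of freedom. With line as a replicate block and 1 effect shared by both mutants (added after seeing the data), edgeR called 1 member, Peg10, against 0 without the block. For each mutant, calls among the 39 members were 0 by edgeR with TMM, with other size factors and without a count filter, and by DESeq2. Since edgeR called 0 of all genes, its counts of 0 say nothing about stability. Rescaling FPKM to TMM library sizes left each count and kept each median within 1 SD between the controls. With a pseudocount of 0.1 FPKM, 1 member was higher (Rian) and 2 lower (Nespas and Slc22a18) in the Pld6 KO, and 2 were higher (Airn and Peg10) and 2 lower (Phlda2 and Slc22a18) in the Dnmt3L KO. The shares of all genes with this pseudocount, and with scaled fragments, were not taken, so those counts are not results about the members. The medians became 0.41 (paternal) and 0.37 (maternal) in the Pld6 KO and 0.25 (maternal) in the Dnmt3L KO. Over genes with a mean FPKM of at least 0.5 (33 members), the paternal medians were 0.33 in the Pld6 KO and -0.27 in the Dnmt3L KO, and the maternal one was 0.21 in the Dnmt3L KO. A 3-fold limit gave 0 higher and 0 lower members in the Dnmt3L KO. Scaled fragments in place of FPKM, added after seeing the data, gave 1 higher (Rian) and 1 lower member (Slc22a18) in the Pld6 KO, 0 lower members in the Dnmt3L KO, and a paternal median of -0.18 in the Dnmt3L KO.

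Leaving out a control moved the counts most. In the Pld6 KO, 5 members were higher and 1 lower without the Dnmt3L heterozygote (control replicate 1), and 6 higher and 4 lower without the Pld6 WT (control replicate 2). In the Dnmt3L KO the counts were 7 higher and 5 lower without the heterozygote, and 2 higher and 2 lower without the Pld6 WT. Against the control of its own line, 4.69% (higher) and 6.46% (lower) of all genes were counted for the Pld6 KO, and 3% and 8.22% for the Dnmt3L KO. Against the control of the other line the shares of all genes were not taken, so those counts are not results about the members. Medians ranged from -0.19 to 0.66 (paternal) and 0.17 to 0.23 (maternal) in the Pld6 KO, and from -0.22 to 0.20 (paternal) and -0.048 to 0.20 (maternal) in the Dnmt3L KO. A fit of edgeR without a control would have no residual degree of freedom and was not run as a test. Of 456 single gene values over 6 settings, 412 moved by less than 1 SD between the controls and 30 took the opposite sign, of which 0 were of Peg10 or Phlda2 in the Dnmt3L KO. The filter on mean FPKM cannot change a gene value, and leaving out 1 of 2 controls can hardly move one by 1 SD between them. The 412 is therefore no measure of stability. Peg10 in the Pld6 KO went from -0.63 to 0.79 without the heterozygote. The causes were not tested. Few fragments limit Phlda2 in the Dnmt3L KO (41), and at least 1 value each of Airn, Magel2, Usp29, Kcnq1, Mirg, Slc22a18, Nespas, Dio3, Rasgrf1, Zim1 and Ddc.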
